A study of Homo sapiens with 54 samples.

Results

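The genes described here are 39 interferon-stimulated genes, genes whose transcription rises when cells respond to interferon. They were chosen by symbol, as genes known to respond to interferon, and all 39 were among the 33119 genes common to both count tables. They were measured in 54 RNA-seq libraries, 3 for each of 18 groups, covering 6 human tumour lines as untreated controls and with 1 of 3 kinase inhibitors. SW48 and SW620 come from colorectal tumours, the NCI-N87 and MKN-45 lines from stomach tumours, and the breast is the source of BT-20 and BT-474. Trametinib inhibits the kinases MEK1 and MEK2, palbociclib inhibits the cell cycle kinases CDK4 and CDK6, and afatinib inhibits the receptor kinases of the EGFR and HER2 family. Set 1, of 12 libraries, held SW48 and SW620 as controls and with trametinib. Set 2, of 42 libraries, held all 6 lines as controls, SW48 and SW620 with trametinib and with palbociclib, and the stomach and breast lines with afatinib. The labels state neither dose nor time of exposure, and no group was treated with interferon. Each line is a single established line, and the labels do not say whether a group's 3 libraries were separately cultured, so the p-values below measure the spread between these libraries, which may be technical.

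Type I interferons bind a receptor on the cell surface and activate the kinases JAK1 and TYK2, which phosphorylate STAT2. A complex that holds STAT2 and IRF9 then binds a promoter element, the interferon-stimulated response element, and switches on genes whose products detect viral RNA, block viral entry, degrade RNA, or conjugate the ubiquitin-like protein ISG15 to other proteins. Many of these genes keep a low, tonic expression in epithelial and tumour cells without added interferon, and that level differs between lines.

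The libraries were made with a 3′ tag kit from 500 ng of total RNA and held 4063382 to 10622670 counts in set 1 and 3401565 to 12806042 in set 2. Values are CPM, counts scaled to a common library size within a set. They are not corrected for length, so levels are compared between samples and not between genes. In bulk RNA, fewer cells expressing a gene and less RNA per cell cannot be told apart. Genes marking epithelial cells were over 1 CPM, 5 of 5, in every control group, while only 1 of 5 stomach markers was over 1 CPM in NCI-N87. Libraries of set 1 carried reads of genes that mark other lines of the series. Summed over the genes that mark 1 line, their CPM reached 21.5% of the sum in that line's own controls in SW48 trametinib 2 of set 1, against at most 4.23% in SW48 of set 2. The median marker gene was at most 1.81% of its own line's level in any library of set 1. SW620 control 3 of set 1 stood apart from its group, with LGALS3BP at 24.6 CPM against 268 and 256 CPM and BST2 at 52.5 CPM against 2.57 and 3.20 CPM. Values called in comparisons that use it are given with and without it. Only 8 interferon genes were looked up, IFNA1, IFNB1, IFNE, IFNK, IFNG, IFNL1, IFNL2 and IFNL3. Of these, 7 had no library over 0.692 CPM. The exception was IFNE, an epithelial type I interferon, at 7.15 ± 1.22 CPM (SD, n = 3) in SW48 controls of set 2, and trametinib lowered it there by a log2 change of -0.71 (edgeR quasi-likelihood test, adjusted p = 0.00821).

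Promoters of 32 of the 39 genes (82.1%) were found in the RefSeq promoter table for GRCh38.p14, which gives 250 bases before to 50 bases after each start site. The core of the interferon-stimulated response element was searched for on both strands as GAAA, any 2 bases, GAAA. It was found in 20 of the 32 promoters (62.5%) and in 1016 of the 27305 promoters of the table (3.72%), and 13 of the 32 held more than 1 match. The core of the gamma-activated site, TTC, any 3 bases, GAA, was found in 9 of the 32 (28.1%) and in 2171 of all promoters (7.95%), and 5 promoters held both. The windows below are from 6 genes picked among those with a match before the start site. Capitals mark matches to the response element core or its reverse complement, and each window is written 5′ to 3′ on the gene's strand. IFIT1 lies at chr10:89392487-89392549 (plus strand), IFIT3 at chr10:89327821-89327904 (plus), IFI6 at chr1:27672256-27672368 (minus), ISG15 at chr1:1013364-1013419 (plus), SAMD9 at chr7:93118086-93118135 (minus) and IFITM3 at chr11:320866-320932 (minus).
IFIT1: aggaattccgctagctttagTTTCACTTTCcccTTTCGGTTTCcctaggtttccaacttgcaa
IFIT3: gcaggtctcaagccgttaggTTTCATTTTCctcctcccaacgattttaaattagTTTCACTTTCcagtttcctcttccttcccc
IFI6: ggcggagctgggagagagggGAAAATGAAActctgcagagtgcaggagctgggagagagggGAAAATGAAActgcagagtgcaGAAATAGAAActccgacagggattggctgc
ISG15: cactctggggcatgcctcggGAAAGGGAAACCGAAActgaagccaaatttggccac
SAMD9: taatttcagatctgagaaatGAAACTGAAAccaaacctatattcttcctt
IFITM3: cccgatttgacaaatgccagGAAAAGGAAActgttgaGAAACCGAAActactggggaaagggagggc

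All 6 windows end before the start site. IFI6 holds 3 matches, of which 2 share the letters GAAAATGAAA, and SAMD9 holds 1. In ISG15 the 2 matches overlap. No match was found in the promoters of STAT2, IRF9, IRF1, DDX58, OAS1, UBE2L6, HERC6, IFI27L2, XAF1, IFI35, SP100 and PARP9, which says only that these letters are not in the window.

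Without drug, the 39 genes differed widely between lines. Their summed level was highest in NCI-N87 (1653.5 ± 161.6 CPM, SD, n = 3) and BT-20 (1472.6 ± 15.5 CPM), whose ranges lay close without overlap, at 1489.2 to 1812.3 and 1454.8 to 1482.8 CPM. SW620 (1129.1 ± 38.0 CPM), MKN-45 (911.1 ± 46.0 CPM), SW48 (681.8 ± 20.1 CPM) and BT-474 (380.1 ± 12.3 CPM) followed, each without overlap with its neighbours. The sum gives most weight to abundant genes. IFITM2 alone was 363, 331 and 350 CPM in SW620 and at most 0.567 CPM in MKN-45, a wider gap than between their sums. Each line was then compared with the mean of the other 5 lines over 15211 genes. In NCI-N87, 30 of 39 members were higher and 1 was lower (edgeR, adjusted p under 0.05), beside 34.5% of all genes higher and 27.4% lower. IFI44 (56, 71 and 51 counts) and IFI44L (32, 50 and 38 counts) passed the filter on low counts through NCI-N87 alone. Other control libraries of set 2 held at most 3 and 7 counts of them, so both entered the test through the line where they are high. BT-20 had 22 higher and 7 lower, against 37% and 30.4% of all genes. MKN-45 had 13 higher and 12 lower, against 34.2% and 28.9%, and SW620 had 10 higher and 13 lower, against 37.1% and 26.4%. SW48 had 7 higher and 18 lower, against 33.9% and 26.5%, and BT-474 had 5 higher and 23 lower, against 33.7% and 27.2%. The members' median log2 difference ran from 1.32 in NCI-N87 and 0.80 in BT-20 through -0.16 in MKN-45, -0.22 in SW620 and -0.53 in SW48 to -1.12 in BT-474, while the median of all genes stayed between -0.01 and 0.05.

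**Figure D1:**
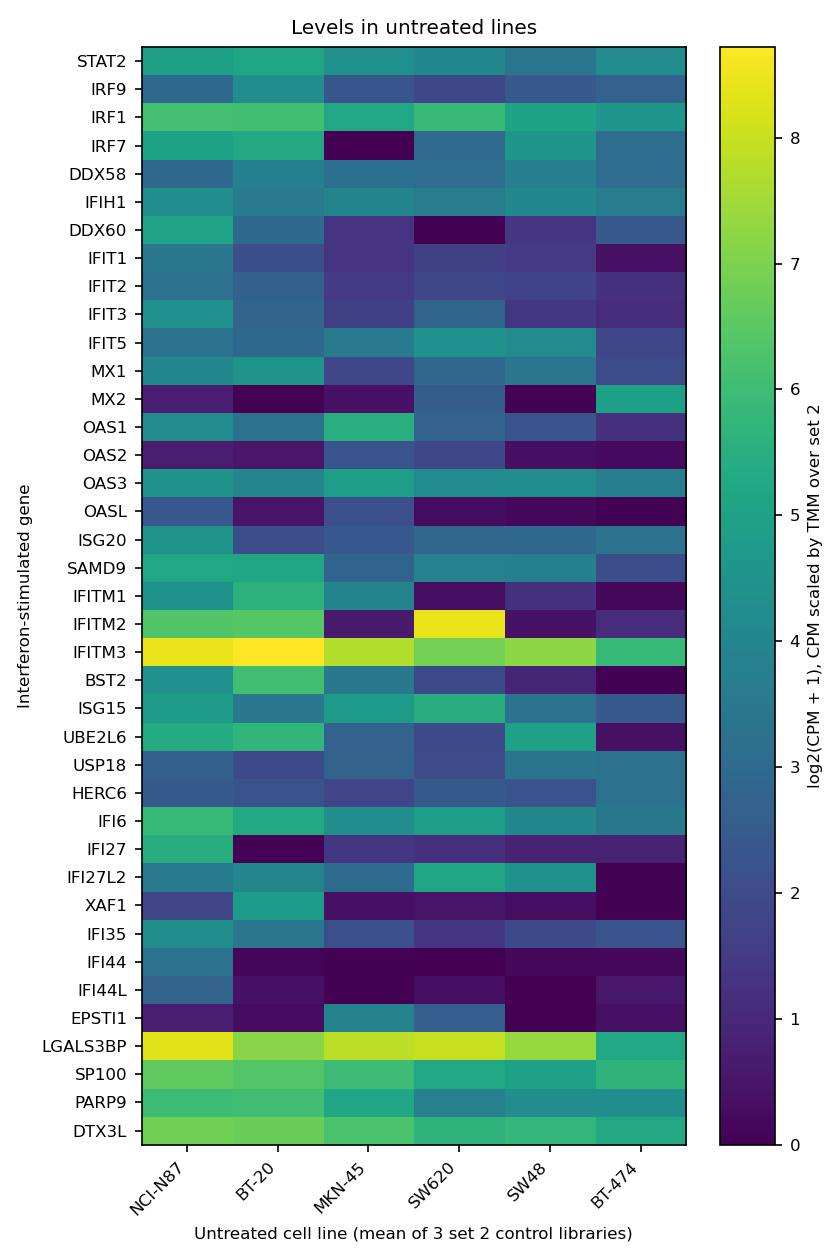
Mean log2(CPM + 1) of each of the 39 genes (rows, ordered by role) over the 3 control libraries of set 2 in each of 6 lines (columns). IFITM2 runs from 0.344 CPM in SW48 to 348 CPM in SW620, IRF7 is at 0 in MKN-45, and IFI27 stands out in NCI-N87.

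Among the signalling genes, STAT2, the transactivating subunit of that complex, was lowest in SW48, at 9.99, 10.1 and 9.11 CPM, with a log2 difference of -1.22 (SE 0.13) from the mean of the other lines. It was highest in BT-20 (34.1 ± 1.46 CPM, SD, n = 3) and NCI-N87 (29.9 ± 4.91 CPM), whose libraries overlapped. IRF7, the factor that amplifies interferon gene transcription, had no count in any of the 3 MKN-45 control libraries, which allows up to 0.149 CPM at 3 counts of the group total. In BT-20 it stood at 37.7 ± 1.01 CPM and in SW48 at 23.5 ± 2.03 CPM, both above the mean of the other 5 lines by the test, with NCI-N87 between them at 32.6 ± 7.74 CPM. Because 1 line had no count, no fold is given for IRF7. IRF9, the DNA-binding subunit of the complex, was 17.2, 19.7 and 19.4 CPM in BT-20, above every control library of the other lines in set 2.

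The membrane restriction factors, which block virus entry or release, separated the lines most. IFITM2 was 363, 331 and 350 CPM in SW620 but 0.210, 0.303 and 0.517 CPM in SW48 and 0.475, 0.563 and 0.567 CPM in MKN-45. The log2 difference from the mean of the other lines was 6.30 (SE 0.14) in SW620 and -5.60 (SE 0.43) in SW48. IFITM1, IFITM2 and IFITM3 are related genes on chromosome 11, so reads may be split between them and these values are uncertain. IFITM1 was 49.7, 45.8 and 47.7 CPM in BT-20, with SW620 at 0.257 ± 0.233 CPM (SD, n = 3). BST2, or tetherin, which holds budding virus at the cell surface, was 62.0, 69.2 and 66.9 CPM in BT-20 and had a count in only 1 of 3 BT-474 libraries, at 0.138 CPM. In NCI-N87 all 4 of these factors were above the mean of the other 5 lines, although BT-20 had the higher group mean for each, and in BT-474 all 4 were below it, although IFITM2 was lower still in SW48 and MKN-45.

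Single effectors departed from that order. OAS1, which makes the second messenger that activates RNase L, was 46.3, 43.6 and 41.9 CPM in MKN-45, a log2 difference of 3.04 (SE 0.16), and at most 17.5 CPM in any control library of another line in set 2. MX2, a GTPase that blocks nuclear entry of some viruses, was 29.3, 28.6 and 32.9 CPM in BT-474 and 4.93 ± 0.511 CPM (SD, n = 3) in SW620, the next highest line. BT-474 was below the mean of the other lines for 10 of 12 effectors and above it for 2, MX2 and ISG20, the latter not without control 1 or control 3. IFIT3, an IFIT complex subunit shown for its promoter above, ranged from 1.23 ± 0.203 CPM in BT-474 up to 20.5 ± 4.11 CPM in NCI-N87. Some members were high in 1 or 2 lines. IFI27, a mitochondrial membrane protein, was 37.3, 42.9 and 47.1 CPM in NCI-N87 and at most 2.41 CPM in the other control libraries of set 2. XAF1, an antagonist of the apoptosis inhibitor XIAP, was 25.4, 31.1 and 23.9 CPM in BT-20 and 2.50 ± 0.555 CPM in NCI-N87. EPSTI1 was 19, 10.7 and 12 CPM in MKN-45 and 3.91, 6.48 and 4.97 CPM in SW620, and had no count in SW48. IFI27, XAF1, MX2 and EPSTI1 were singled out after their values were seen.

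Trametinib raised interferon-stimulated genes in SW48 in both sets. In set 1, 34 members passed the filter on low counts, and 19 of them rose and 2 fell (edgeR, adjusted p under 0.05), where 16% of all 12235 genes tested rose and 19.4% fell. With all groups of set 1 in 1 fit, which pools the spread with SW620, 11 of these calls were left (10 higher, 1 lower), and BST2, DDX58, DDX60, IFI44, IFITM3, IRF9, ISG20, MX1, OAS1 and STAT2 did not pass. In set 2, which has its own controls, 23 of 32 tested members rose and 1 fell, where 30.1% of 12688 genes rose and 30.1% fell. The members' median log2 change was 1.20 in set 1 and 0.95 in set 2, beside 0.01 for all genes in both. Of the 19 genes that rose in set 1, 16 (84.2%) also rose in set 2, and these are 69.6% of the 23 there. No member rose in 1 set and fell in the other. The summed level of the members went from 940 to 1153 CPM in controls to 1643 to 1962 CPM with trametinib in set 1, and from 659 to 698 CPM to 1249 to 1274 CPM in set 2. Mitochondrial ribosomal RNA moved with the drug, from 0.970 to 1.60% of counts in controls to 2.25 to 3.33% in set 2, and from 1.63 to 3.81% to 4.64 to 5.64% in set 1. Reads that did not align made up 22.4 to 38.0% of the reads in SW48 controls of set 1 and 42.4 to 47.5% with trametinib. Their part in these changes was not tested.

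**Figure D2:**
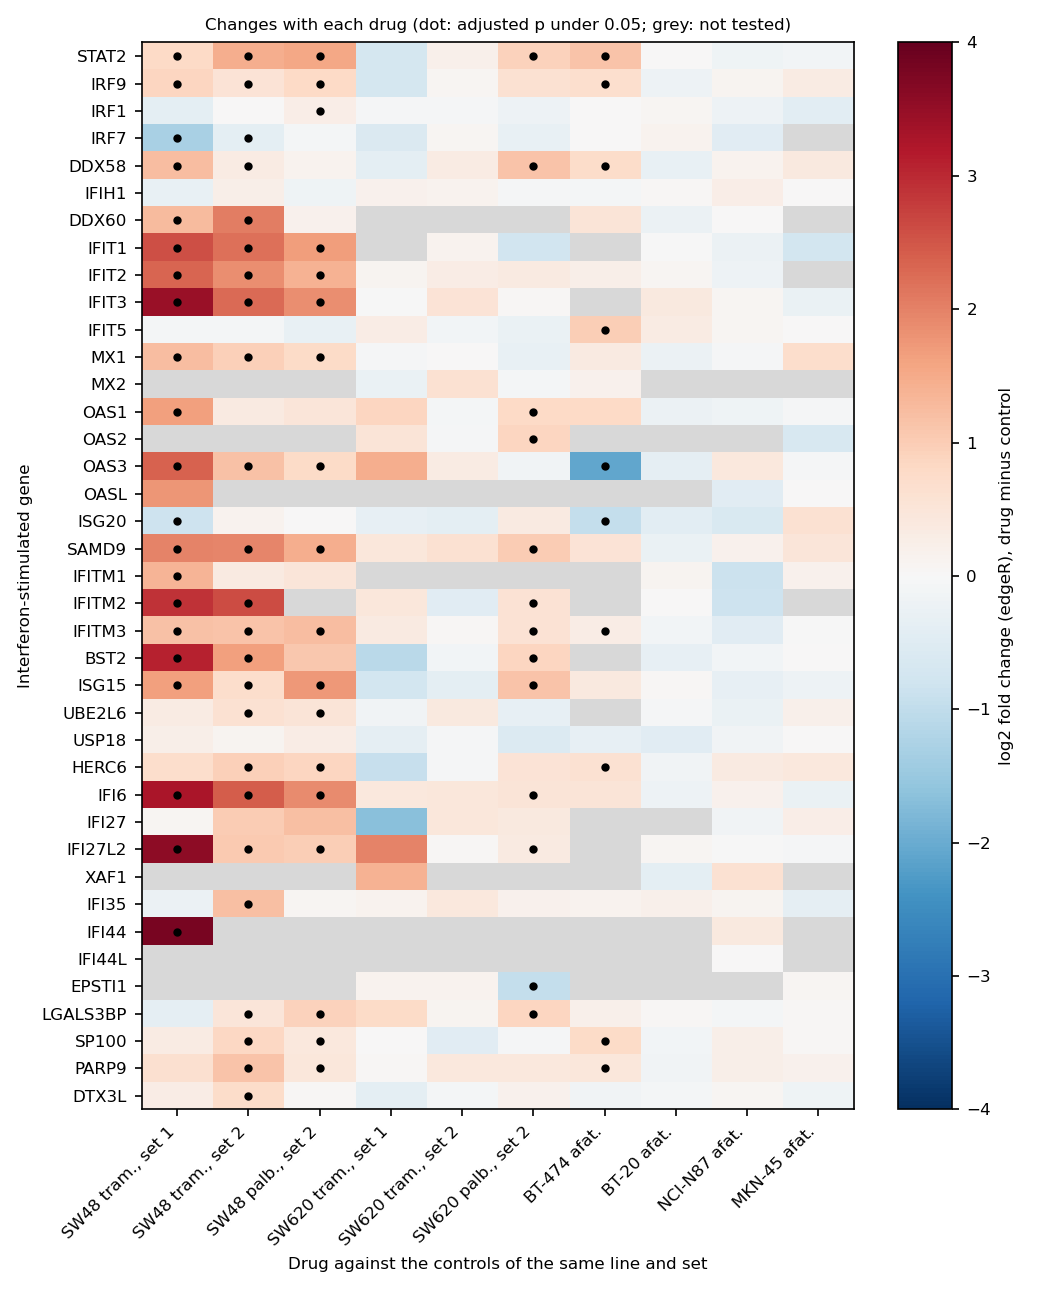
Log2 change against the same line's controls for each of the 39 genes (rows, by role) in 10 drug comparisons (columns). A dot marks an edgeR adjusted p under 0.05 and grey marks genes not tested. The SW48 columns hold 21, 24 and 18 dots, the SW620 palbociclib column 13 and the BT-474 column 10. The other 5 columns hold none.

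IFI6, a mitochondrial and endoplasmic reticulum protein that limits apoptosis, had the smallest adjusted p of the members in both sets. Its controls read 11.5, 13.5 and 13.5 CPM in set 1 and trametinib libraries 133, 109 and 130 CPM, a log2 change of 3.28 (SE 0.14, edgeR adjusted p = 4.03e-06). In set 2 the controls read 16.7, 14.3 and 16.5 CPM and the trametinib libraries 84.2, 84.5 and 90.9 CPM (log2 change 2.43, SE 0.08, adjusted p = 9.15e-11). Every treated library lay several-fold above every control in both sets. Its relative IFI27L2 was more variable in set 1, with 2.61, 3.42 and 13.7 CPM in controls and 126, 39.9 and 74.2 CPM with drug (log2 change 3.58, SE 0.63, adjusted p = 0.00339), or 4.71 without control 3. In set 2 it went from 20.6, 22.5 and 21.5 CPM to 44.7, 43.4 and 46.9 CPM (log2 change 1.04, SE 0.08). The groups did not overlap, but the control level of IFI27L2 differed between the sets, which were scaled separately.

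Of the 12 antiviral effectors, 10 were tested in set 1, of which 7 rose and ISG20 fell, and 9 were tested in set 2, of which 6 rose. The IFIT proteins bind viral RNA that lacks the host cap pattern. IFIT1 went from 1.56, 3.56 and 2.10 CPM to 18.5, 10.4 and 14.7 CPM in set 1 (log2 change 2.58, SE 0.39), and from 1.16, 2.33 and 1.76 CPM to 9.47, 6.49 and 8.59 CPM in set 2 (2.20, SE 0.27). IFIT3, with 2 response element cores in its window, went from 0.347, 1.57 and 1.31 CPM to 15.6, 8.77 and 11.9 CPM in set 1 (3.44, SE 0.50), and from 1.68, 1.62 and 1.66 CPM to 8.76, 8.79 and 6.83 CPM in set 2 (2.27, SE 0.22). These are low counts, yet no treated library reached down to a control. SAMD9, a restriction factor for poxviruses, went from 22.4, 19.5 and 23.8 CPM to 96.0, 77.8 and 83.5 CPM in set 1 (1.98, SE 0.14) and from 12, 12.6 and 12.9 CPM to 53.8, 47.9 and 46.5 CPM in set 2 (1.96, SE 0.10), a near equal change from different control levels. OAS3 rose from 13.5, 12.1 and 13 CPM to 68.8, 64.4 and 63.2 CPM in set 1 (2.35, SE 0.13, adjusted p = 1.07e-05). In set 2 OAS3 rose from 18.2, 20.2 and 17.2 CPM to 42.0, 41.9 and 43.5 CPM (1.18, SE 0.09, adjusted p = 1.91e-07). ISG20, an RNA exonuclease, fell in set 1, from 13.9, 16.9 and 14.1 CPM to 7.16, 10.6 and 7.44 CPM (log2 change -0.83, adjusted p = 0.0325). It did not pass in set 2.

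The signalling genes split. STAT2 rose in both sets, from 18.6, 24.4 and 13.4 CPM to 28.1, 30.7 and 38.7 CPM in set 1 (log2 change 0.80, SE 0.24, adjusted p = 0.0342) and from 9.99, 10.1 and 9.11 CPM to 24.3, 26.4 and 31.0 CPM in set 2 (1.46, SE 0.12, adjusted p = 5.25e-07). IRF9 also rose, by 0.87 (SE 0.27) in set 1 and 0.53 (SE 0.20) in set 2. IRF7 fell, from 62.5, 52.0 and 46.8 CPM to 20.2, 24.5 and 20.5 CPM in set 1 (log2 change -1.30, SE 0.16, adjusted p = 0.000666). In set 2 IRF7 went from 22.3, 25.9 and 22.5 CPM to 17.9, 18.4 and 18.6 CPM (-0.38, SE 0.10, adjusted p = 0.00577). IRF7 fell in both sets without overlap between groups. IRF1, a factor of the interferon gamma response, had log2 changes of -0.39 and 0.03 and passed in neither set. Of the RNA sensors, DDX58, which encodes RIG-I, rose by 1.22 (SE 0.22) in set 1, from 10.9, 8.4 and 11.7 CPM to 24.8, 19.8 and 27.1 CPM, and by 0.32 (SE 0.12) in set 2. DDX60, a RIG-I cofactor, rose by 1.27 (SE 0.20) in set 1 and 2.06 (SE 0.30) in set 2. IFIH1, which encodes the sensor MDA5, had log2 changes of -0.31 and 0.24 and passed in neither.

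All 4 membrane factors rose in set 1 and 3 of 4 in set 2. Among them IFITM2 rests on low counts, 1, 0 and 9 in controls and 23, 12 and 21 with drug in set 1. In set 2 it had 2, 3 and 5 counts in controls and 20, 28 and 14 with drug. IFITM3, which blocks fusion of enveloped viruses, went from 240, 274 and 338 CPM to 656, 579 and 672 CPM in set 1 (log2 change 1.17, SE 0.13) and from 154, 154 and 139 CPM to 322, 333 and 339 CPM in set 2 (1.14, SE 0.06), nearly the same change. IFITM1 passed in set 1 alone, at 21.0, 12.7 and 13.1 CPM in controls and 41.6, 45 and 32.4 CPM with drug (1.36, SE 0.24). Its set 2 level was far lower, at 1.89, 1.11 and 1.24 CPM in controls and 1.83, 1.87 and 1.86 CPM with drug. The rise of BST2 in set 1, from 5.38, 0.570 and 0.263 CPM to 9.91, 5.77 and 33.5 CPM (3.07, SE 1.02, adjusted p = 0.0472), was lost under DESeq2 (adjusted p = 0.0607) and without any 1 of 4 of the 6 libraries (SW48 controls 2 and 3, trametinib 1 and 3). It was 1.97 without trametinib 3 and 5.25 without control 1. ISG15, the ubiquitin-like modifier, went from 5.73, 5.70 and 6.43 CPM to 23.9, 17.1 and 14.1 CPM in set 1 (1.63, SE 0.27), and from 7.99, 9.41 and 8.38 CPM to 12.6, 15.2 and 14.7 CPM in set 2 (0.70, SE 0.14). USP18, which removes ISG15 and restrains the receptor, had log2 changes of 0.23 and 0.09 and passed in neither set. In the remaining group, all 5 tested members rose in set 2 against 1 of 6 in set 1. PARP9 rose in set 2 from 17.8, 18.1 and 19.5 CPM to 41.3, 43.3 and 38.0 CPM (1.13, SE 0.09). Its partner DTX3L, an E3 ubiquitin ligase, rose from 53.5, 52.8 and 54.0 CPM to 84.0, 97.1 and 88.5 CPM (0.73, SE 0.07). PARP9 (3:122527924-122564784, minus strand) and DTX3L (3:122564338-122575203, plus strand) overlap at their starts, and the sources used here do not say whether counting used strand.

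Palbociclib also raised these genes in SW48. Of 31 tested members, 18 rose and 0 fell, where 28.3% of 12690 genes rose and 29.2% fell, and their median log2 change was 0.76 (0.01 for all genes). The summed level was 1212 to 1273 CPM, against 659 to 698 CPM in the controls. These controls are the same libraries that the trametinib comparison of set 2 used. IFI6 read 53.2, 55.2 and 67.1 CPM with palbociclib (log2 change 1.88, SE 0.11, adjusted p = 3.53e-09). ISG15 read 32.0, 27.7 and 27.3 CPM (1.74, SE 0.13, adjusted p = 3.41e-08), more than 2-fold above the highest control. STAT2 read 29.7, 26.9 and 28.8 CPM (1.53, SE 0.12, adjusted p = 5.19e-08), again clear of every control. SAMD9 read 31.8, 36.2 and 36.6 CPM (1.47, SE 0.11), and IFITM3 read 370, 348 and 337 CPM (1.23, SE 0.07). All 5 of these genes kept control and treated libraries apart. IFIT3 rose by 1.85 (SE 0.37), with 1 library, at 2.78 CPM, well below the other two at 7.98 and 7.20 CPM. None of the 3 RNA sensors passed. IRF9 rose by 0.81 (SE 0.20) and IRF1 by 0.26 (SE 0.09), and IRF7, at 21.6, 22.0 and 24.0 CPM, overlapped its controls (-0.08). Mitochondrial ribosomal RNA was 2.94 to 4.52% of counts with palbociclib, and its part was not tested.

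Trametinib and palbociclib were compared directly within SW48. Between the treated groups, 10 of 32 members were higher with trametinib and 3 were lower, where 21% and 20.9% of 12807 genes were. ISG15 was lower with trametinib by a log2 difference of -1.04 (SE 0.12, edgeR adjusted p = 9.79e-06), at 12.6 to 15.2 CPM against 27.3 to 32.0 CPM. DTX3L was higher with trametinib by 0.70 (SE 0.07, adjusted p = 5.32e-06), and palbociclib left it at 53.4, 56.4 and 55.8 CPM, beside controls of 52.8 to 54.0 CPM. PARP9 (0.69, SE 0.09), IFI6 (0.56, SE 0.09) and SAMD9 (0.50, SE 0.09) were also higher with trametinib. The largest difference among called members was DDX60, at 1.88 (SE 0.34), from 7.74, 8.24 and 4.66 CPM with trametinib and 0.971, 1.72 and 2.89 CPM with palbociclib. STAT2 did not pass (-0.07, adjusted p = 0.62).

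In SW620 the drugs differed from each other. Palbociclib raised 12 of 33 tested members and lowered 1, where 17.6% of 13068 genes rose and 17.4% fell, with a median of 0.36 for the members. ISG15 went from 37.9, 35.3 and 52.2 CPM to 94.0, 93.0 and 87 CPM (log2 change 1.14, SE 0.14, edgeR adjusted p = 0.000124). DDX58 went from 6.24, 7.16 and 9.41 CPM to 15.2, 15.1 and 19.6 CPM (1.14, SE 0.19, adjusted p = 0.000926), and SAMD9 from 16.3, 10.2 and 11.8 CPM to 23.5, 23.8 and 29.4 CPM (1.02, SE 0.17). In all 3 genes the groups stayed apart. STAT2 went from 16.5, 13.8 and 17.6 CPM to 28.0, 30.2 and 32.5 CPM (0.94, SE 0.13), a range that overlaps its level with palbociclib in SW48. LGALS3BP, a secreted glycoprotein, went from 263, 229 and 247 CPM to 441, 437 and 452 CPM (0.87, SE 0.08, adjusted p = 2.43e-05). IFITM3 rose by 0.59 (SE 0.08) and IFITM2, from 363, 331 and 350 CPM to 517, 485 and 541 CPM, by 0.58 (SE 0.08). None of the IFIT genes passed. IFIT3 was 6.35, 5.80 and 5.84 CPM in controls and 5.76, 6.30 and 6.37 CPM with palbociclib, and IFIT1 had a log2 change of -0.77 (adjusted p = 0.25). EPSTI1 fell, from 3.91, 6.48 and 4.97 CPM to 3.51, 1.84 and 2.51 CPM (-0.94, SE 0.32, adjusted p = 0.0379).

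With trametinib, edgeR called 0 of 33 tested members in SW620 in either set, and 0% of all genes rose or fell in either. In set 2, 8 members had an unadjusted p under 0.05, beside 2204 of 12919 genes, and DESeq2 called 0 members. IFI6 was 27.5, 27.1 and 30.3 CPM in controls and 29.3, 37.2 and 51.5 CPM with drug (log2 change 0.47, SE 0.19, adjusted p = 0.262), and the groups overlapped. Without trametinib 1, 3 members passed, with IFI6 and SAMD9 higher and SP100 lower. The share of all genes that passed without that library is not given here. IFIT3 stood at 8.71, 8.68 and 8.92 CPM, above every control of that set (0.54, SE 0.16, adjusted p = 0.218). In set 1, 3 members had an unadjusted p under 0.05, beside 366 of 13081 genes, and DESeq2 called 1 member, OAS3. OAS3 read 8.04, 6.19 and 7.21 CPM in controls and 18.1, 18.4 and 22.7 CPM with drug, apart in every library (1.47, SE 0.25, edgeR adjusted p = 0.919, or 1.48 and 0.209 without SW620 control 3). IFI6 also lay above its controls in set 1, at 23.3, 30.8 and 32.0 CPM against 21.3, 20.4 and 22.9 CPM, and STAT2 and ISG15 lay below theirs, and none of these passed. In this set the power was low, since 0% of simulated 2-fold changes were recovered there, against 78% in set 2. With SW620 control 3 left out, the count in set 1 was again 0.

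**Figure D3:**
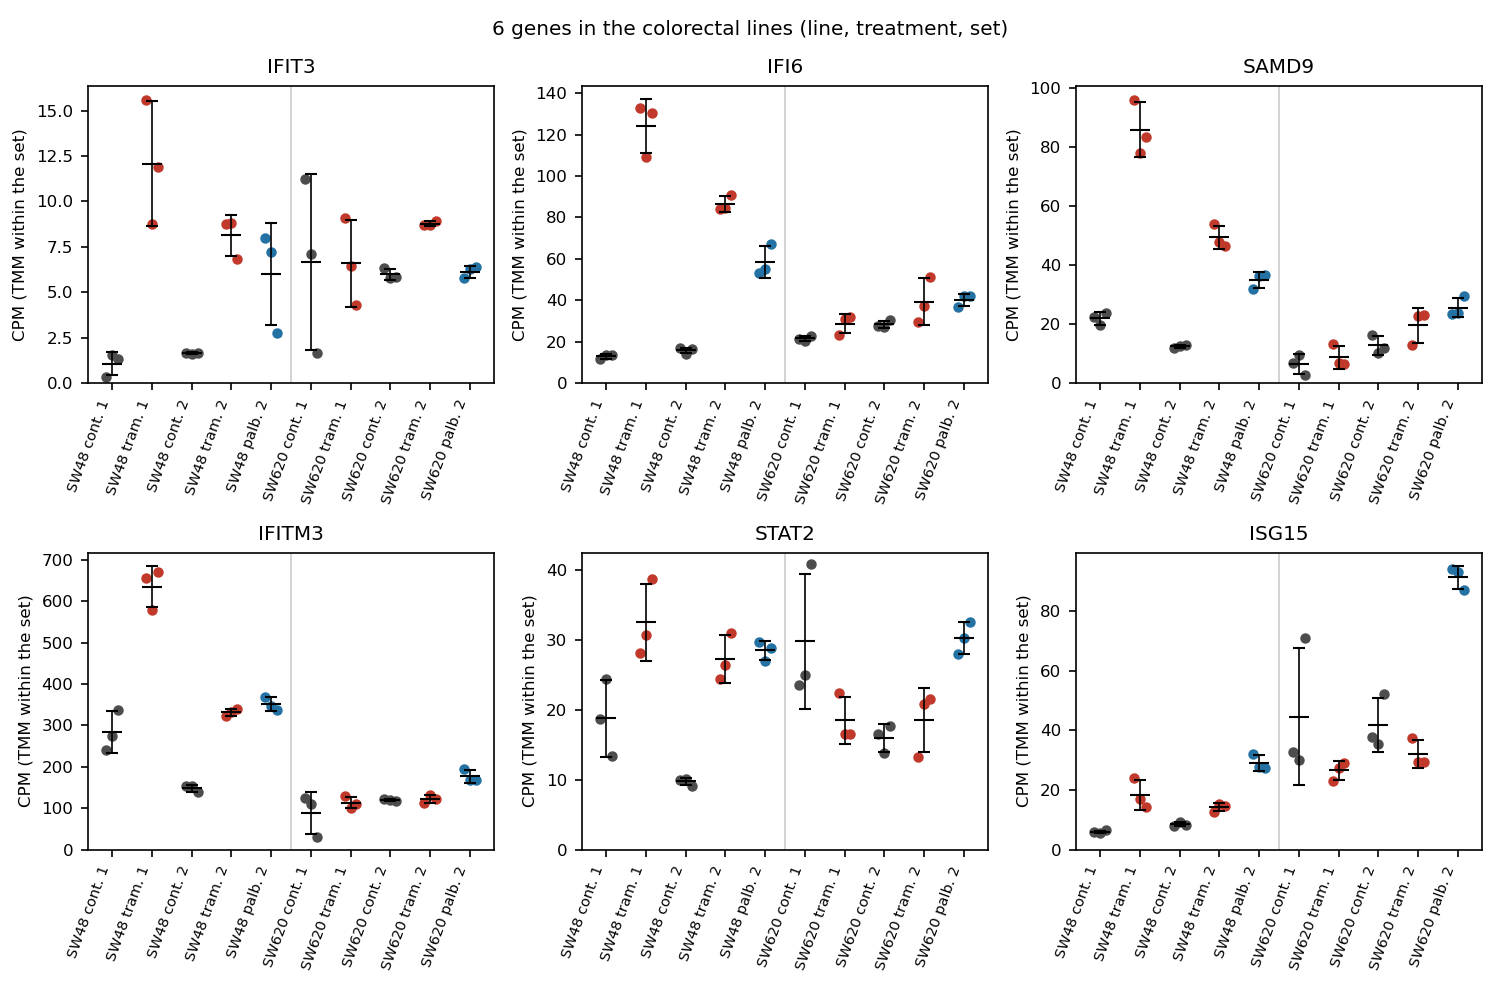
CPM of 6 members (IFIT3, IFI6, SAMD9, IFITM3, STAT2 and ISG15) in every SW48 and SW620 library, 1 point per library, with bars at the group mean and whiskers of 1 SD (n = 3). In SW48 the trametinib and palbociclib points sit above the controls of their set in all 6 panels. In SW620 the palbociclib points rise for ISG15, STAT2, SAMD9, IFITM3 and IFI6, while trametinib points of set 2 overlap the controls in every panel except IFIT3. In set 1 trametinib points lie above the controls for IFI6 and below them for STAT2 and ISG15.

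Compared directly in SW620, 2 of 33 members were higher with trametinib than with palbociclib and 10 were lower, where 15.9% and 16.7% of 13232 genes were. ISG15 was lower with trametinib by a log2 difference of -1.51 (SE 0.12, edgeR adjusted p = 2.82e-05), at 37.6, 29.2 and 29.5 CPM. LGALS3BP (-0.73, SE 0.09), DDX58 (-0.80, SE 0.16) and STAT2 (-0.72, SE 0.18, adjusted p = 0.0107) were lower as well. IFITM2 was lower by -1.03 (SE 0.21), with trametinib libraries at 339, 269 and 153 CPM. The members higher with trametinib were OAS3, by 0.46 (SE 0.12), and EPSTI1, by 1.10 (SE 0.32).

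The difference in response between SW620 and SW48 was tested with an interaction term. For trametinib in set 2, the change was smaller or more negative in SW620 for 16 of 35 members and larger for 0, where 12.9% and 15.3% of 14027 genes were. IFI6 differed by -1.95 (SE 0.22, edgeR adjusted p = 2.91e-05), SAMD9 by -1.34 (SE 0.29), SP100 by -1.26 (SE 0.18) and STAT2 by -1.24 (SE 0.25). IFITM2 also differed (-3.04, SE 0.70, adjusted p = 0.00523), but it passed the filter through SW620, and in SW48 it rests on 2, 3 and 5 counts in controls and 20, 28 and 14 with drug. In set 1, 4 of 38 members had a lower change in SW620 and 0 a higher one, where 2.78% and 3.95% of 14525 genes did. They were IFI6 (-2.86, SE 0.24, adjusted p = 0.000103), ISG15 (-2.37, SE 0.47, adjusted p = 0.0126), IFIT3 (-3.46, SE 0.92, adjusted p = 0.0459) and STAT2 (-1.48, SE 0.40, adjusted p = 0.0499). Without SW620 control 3 the count was 10, of which IRF7 was higher, and the values were -2.80 for IFI6, -1.85 for ISG15, -3.91 for IFIT3 and -1.18 for STAT2. The share of all genes that differed without that library is not given here. The STAT2 call was lost without any 1 of 10 of the 12 libraries. For palbociclib, 12 of 35 members had a lower change in SW620 and 1, DDX58, a higher one, where 11.2% and 14.6% of 14098 genes did. IFI6 differed by -1.34 (SE 0.16, adjusted p = 1.8e-05), MX1, a dynamin-like antiviral GTPase, by -1.03 (SE 0.23), and OAS3 by -0.88 (SE 0.14). UBE2L6, the conjugating enzyme for ISG15, differed by -0.83 (SE 0.22, adjusted p = 0.012). DDX58 differed by 1.01 (SE 0.28, adjusted p = 0.0136). Both trametinib and palbociclib effects of set 2 share each line's controls.

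**Figure D4:**
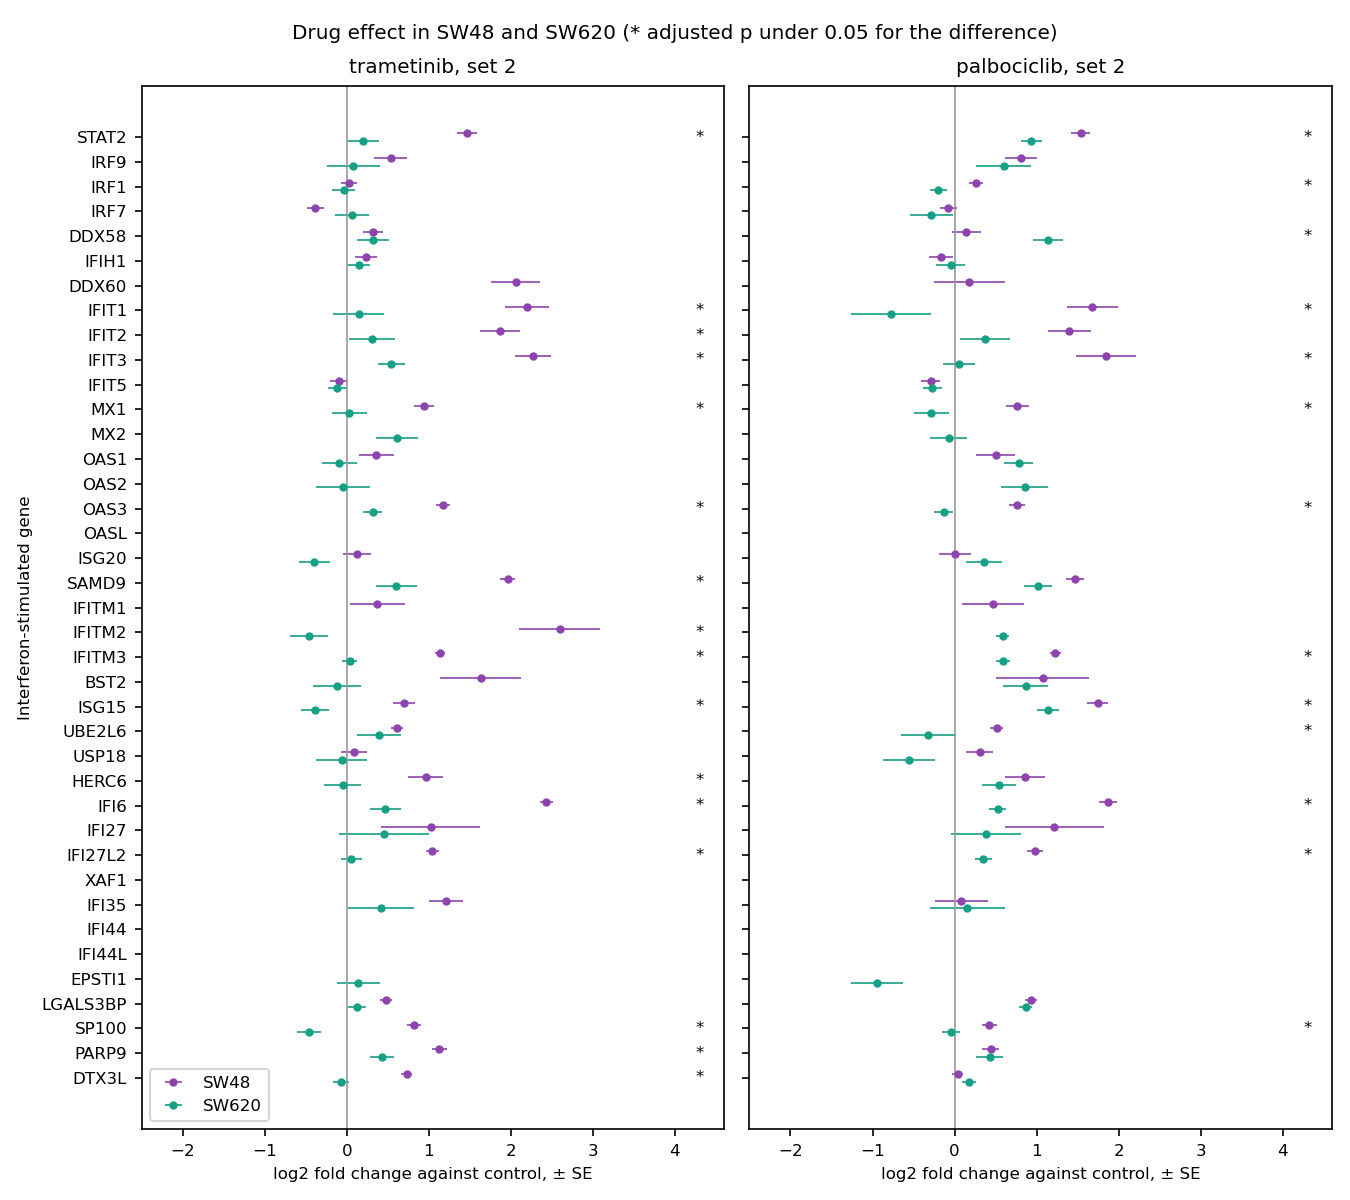
Log2 change with its SE in SW48 and SW620, for trametinib and for palbociclib in set 2, per member. An asterisk marks members whose change differed between the lines (edgeR interaction, adjusted p under 0.05), 16 for trametinib and 13 for palbociclib. Most SW48 points lie to the higher side, with DDX58 under palbociclib as the called exception.

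Afatinib was given to the stomach and breast lines. In BT-474, 8 of 25 tested members rose and 2 fell, where 20.9% of 12768 genes rose and 21.8% fell. The members' median log2 change was 0.36. STAT2 went from 19.7, 14.2 and 19.1 CPM to 41.8, 40.0 and 34.5 CPM (1.14, SE 0.13, edgeR adjusted p = 2.51e-05), and SP100, a nuclear body protein, from 47.5, 49.1 and 52.5 CPM to 83.8, 81.5 and 84.3 CPM (0.75, SE 0.08, adjusted p = 8.51e-06). Both kept the groups apart. IRF9, from 4.39, 6.55 and 6.22 CPM to 8.78, 10.4 and 8.38 CPM, rose by 0.68 (SE 0.21, adjusted p = 0.0186). DDX58 rose by 0.73 (SE 0.18), HERC6 by 0.62 (SE 0.16), PARP9 by 0.45 (SE 0.10) and IFITM3, from 55.7, 57.8 and 55.6 CPM to 70.2, 65.6 and 71.5 CPM, by 0.30 (SE 0.08). IFIT5 rose by 0.98 (SE 0.32), although 1 treated library, at 3.79 CPM, overlapped the controls. The members that fell were OAS3, a synthetase that makes the RNase L activator, and the exonuclease ISG20. OAS3 went from 9.80, 15.9 and 10.8 CPM to 0.172, 4.33 and 4.11 CPM (-2.06, SE 0.45, adjusted p = 0.0029), and ISG20 from 8.78, 8.36 and 9.67 CPM to 3.79, 6.23 and 3.62 CPM (-0.97, SE 0.23). IFIT3, OAS2, OASL and UBE2L6 had no count in any afatinib library of BT-474, which allows up to 0.167 CPM at 3 counts of the group total. None of the 4 was tested, and the controls held 10, 8 and 8 counts of IFIT3 but only 0 to 7 counts of each of the others.

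In the other lines given afatinib, edgeR called no member. In NCI-N87 0 of 36 tested members passed, where 0% of 12472 genes rose and 0% fell. An unadjusted p under 0.05 was found for 4 members and 1523 of all genes, and DESeq2 called 0 members. IFITM2 read 53.4, 81.6 and 106 CPM in controls and 44.8, 60.6 and 28.3 CPM with drug (-0.83, SE 0.29, adjusted p = 0.372), and IFITM3 read 287, 353 and 422 CPM and 261, 269 and 236 CPM (-0.47, SE 0.16, adjusted p = 0.372). Control 1 was the lowest control for both, and without it 6 members passed, IFITM1, IFITM2, IFITM3, IRF7, UBE2L6 and IFIH1. The share of all genes that passed without control 1 is not given here. That library had mitochondrial ribosomal RNA at 8.15% of counts, against 3.39% and 3.18% in the other controls and 10.3%, 10.3% and 4.96% with afatinib. In MKN-45 0 of 31 passed, where 0% of 12358 genes rose and 0% fell. Here 1 member (IRF1, -0.41) and 664 of all genes had an unadjusted p under 0.05, and DESeq2 called 0 members. In BT-20 0 of 32 passed, where 0.273% of 12810 genes rose and 0.312% fell. Here 4 members and 1602 of all genes had an unadjusted p under 0.05, and DESeq2 called 0 members. BST2 had the smallest adjusted p of the members in BT-20, at 0.169 (-0.33), with 62.0, 69.2 and 66.9 CPM in controls and 57.3, 55.0 and 44.8 CPM with drug.

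Between the breast lines, the afatinib change was higher in BT-474 than in BT-20 for 7 of 33 members and lower for 2, where 10.2% and 13.6% of 14019 genes were. STAT2 differed by 1.12 (SE 0.18, edgeR adjusted p = 0.00024), SP100 by 0.85 (SE 0.11, adjusted p = 3.56e-05), DDX58 by 1.02 (SE 0.26) and IRF9 by 0.86 (SE 0.22), the last not when every group of set 2 entered 1 fit (adjusted p = 0.0979). OAS3 differed by -1.71 (SE 0.55, adjusted p = 0.0335), a call lost under DESeq2 (adjusted p = 0.183) and without any 1 of 6 of the 12 libraries. The other lower member was IFIT3, for which no fold is given because BT-474 had no count with drug. IFIT3 passed the filter through BT-20 and was not tested in BT-474 alone, where the controls held 10, 8 and 8 counts. Between the stomach lines, 0 of 38 members differed by edgeR, where 0.00725% of 13791 genes were higher and 0.00725% lower in NCI-N87. An unadjusted p under 0.05 was found for 6 members and 1578 of all genes, and DESeq2 called 1 member, IRF7.

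Across the 10 drug comparisons, 21 members were tested in all and each of the 39 in at least 1. By edgeR, 28 members rose at least once and never fell, 3 fell at least once and never rose (IRF7, ISG20 and EPSTI1), OAS3 did both, and 7 were never called. Genes with and without a response element core were set side by side as a description, beside the 16%, 30.1% and 28.3% of all genes that rose in the 3 SW48 comparisons. In SW48 with trametinib in set 1, 12 of 18 tested members with a core rose and 1 fell (median log2 change 1.31), and 5 of 11 without one rose (0.71). In set 2 the counts were 12 of 17 (1.02) and 9 of 11 (0.82), and for palbociclib in SW48 9 of 17 (0.93) and 8 of 11 (0.50). By the share that rose, members without a core stood higher in both of these set 2 comparisons. In SW620 with palbociclib the medians had the other order, 0.27 with and 0.43 without a core, as in BT-474 with afatinib, with 0.33 and 0.69. The members that rose were 6 of 16 with and 4 of 11 without a core in SW620, beside 17.6% of all genes. In BT-474 they were 2 of 12 and 6 of 9, beside 20.9%.

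Other genes of the pathway were counted from 7 lists. In SW48 these counts stand beside 16% of all genes higher and 19.4% lower with trametinib in set 1, 30.1% and 30.1% in set 2, and 28.3% and 29.2% with palbociclib, and several lists were near those shares. Of 10 tested ligands, receptors and kinases, 4 rose and 2 fell in SW48 with trametinib in set 2 (median 0.19), and 1 rose and 3 fell in set 1 (-0.20). TYK2, a receptor kinase, rose by 0.96 in set 1 and 0.57 in set 2, and JAK1, its partner, fell by 0.66 in set 1 (all log2 changes). Of 13 tested sensors and adaptors, 8 rose in set 2 and 2 in set 1, with 1 lower in each, and of 10 negative regulators 4 rose and 4 fell in set 2 (median 0.00). Among further interferon-induced genes, 12 of 29 rose and 2 fell in set 1 and 16 of 27 rose and 4 fell in set 2. WARS, a tryptophan tRNA ligase that interferon gamma induces, fell in SW48 by 3.46 and 2.75 with trametinib and by 2.17 with palbociclib, in SW620 by 0.51 with palbociclib and in BT-474 by 0.75. Of the tested genes more typical of interferon gamma, 3 of 7 rose and 1 fell in SW48 with trametinib in set 1, and 2 of 6 rose and 1 fell in set 2. Of 17 tested antigen presentation genes, 13 rose and 1 fell with trametinib and 14 rose and 1 fell with palbociclib in SW48 of set 2, with ERAP2, which trims peptides, up by 2.22 and 1.53. In set 1 the same list had 5 higher and 4 lower. With trametinib in SW620 and with afatinib in NCI-N87 and MKN-45, edgeR called no gene of any of the lists.

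Targets of the MEK and ERK kinases, counted beside them, fell in SW48 with trametinib, 14 of 18 in set 1 (median -1.90) and 17 of 18 in set 2 (-2.04), with 0 higher. FOSL1, an AP-1 subunit, fell by 4.11 and 3.10. In SW48 with palbociclib 12 of these 18 genes fell and 3 rose, and in BT-474 with afatinib 11 fell and 2 rose. In SW620 with palbociclib 9 rose and 1 fell, and with trametinib edgeR called none in either set. Marker genes of other cell types moved with the drugs as well. The 6 fibroblast markers summed to 14.5 to 14.7 CPM in SW48 controls of set 2, 51.2 to 54.1 CPM with trametinib and 24.6 to 27.3 CPM with palbociclib, and to 5.91 to 23.1 CPM and 67.6 to 85.7 CPM with trametinib in set 1, mostly COL1A1, DCN and LUM. In SW620 of set 2 they went from 17.6 to 24.1 CPM to 33.8 to 182.5 CPM with palbociclib. The 5 epithelial markers went from 3886 to 4032 CPM to 1695 to 1774 CPM with trametinib in SW48 of set 2 and from 5251 to 5777 CPM to 2730 to 2825 CPM in set 1, but were at 4534 to 5044 CPM with palbociclib. EPCAM, 1 of these 5, was 476 CPM in SW48 controls of set 2 and 470 CPM with trametinib, while the sum of the 5 fell. In SW48 of set 2 the 7 immune cell markers summed to 12.3 to 13.4 CPM in controls, 15.2 to 19.7 CPM with trametinib and 21.1 to 28.0 CPM with palbociclib. Most of that was CD68, a lysosomal protein also made outside macrophages, which went from 8.81 to 14.4 and 20.7 CPM. In SW48 of set 1 the sum of these immune cell markers went from 25.9 to 30.6 CPM in controls to 15.3 to 16.2 CPM with trametinib. The leukocyte marker PTPRC was 3.79 CPM in controls, 3.05 CPM with trametinib and 2.61 CPM with palbociclib in set 2. In the same order, 3, 4 and 1 of the 7 markers had no count. The 4 markers of plasmacytoid dendritic cells, the main producers of interferon alpha in blood, summed to 9.0 to 9.52 CPM in SW48 controls of set 2, 7.33 to 12 CPM with trametinib and 9.71 to 11.9 CPM with palbociclib. The part of these markers was not tested.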

How the data were processed

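RNA was extracted with Trizol and sequenced as 3′ tag libraries (Lexogen QuantSeq), per the labels' protocols. The deposited values are raw counts per gene made by the authors, who used Trimmomatic, STAR, featureCounts and hg38 per the submitters' processing notes, with no version stated. The first table held set 1 and 5 rows of reads given to no gene, which made up 39.7 to 73.8% of its reads and were kept out. The second table held set 2 and copies of the 12 libraries of set 1, identical in value, which were not used again. Groups came from the sample labels.

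Each comparison was fitted separately with edgeR 4.0.16 (limma 3.58.1, R 4.3.3): filterByExpr (minimum count 10, minimum total 15), TMM scaling, quasi-likelihood tests over all genes that passed, Benjamini-Hochberg adjustment and a threshold of 0.05. CPM values used TMM within a set. Untreated lines were compared in 1 fit of the 6 control groups of set 2. Alternatives were DESeq2 1.42.0, its size factors, no filter, all groups of a set in 1 fit, a replicate block and leaving out each library. Sequences and motifs were read with Python 3.11.15 and figures drawn with matplotlib 3.10.9.

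Members and gene lists were chosen with earlier results of these data known. Members named with full statistics passed the threshold, had a mean log2 CPM of at least 3 and had the largest changes, at most 6 for a drug against control, 4 in each direction for an untreated line and 5 for a difference of effects. STAT2, IRF9, IRF1, IRF7, DDX58, IFIH1 and USP18 could always be named. Others, such as IFIT3, were named after their values were seen. On simulated counts for the same genes and libraries, 88.5% of 2-fold changes were recovered for trametinib in SW48 of set 2 and 58.5% in set 1. Limits at 3 counts cover counting error only. No pair of libraries in a group agreed within sampling noise (at least 2.754 chi-square per gene). Results for some genes of the pathway lists are not reported here.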

Additional observations from a re-analysis of the deposited data

Results flagged for a closer look

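The changes below differed between lines by a test of the difference itself (edgeR interaction, adjusted p under 0.05), given as log2 differences of SW620 minus SW48 or BT-474 minus BT-20.

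For trametinib in set 1, 4 members differed between SW620 and SW48, among them IFI6 (-2.86), ISG15 (-2.37) and STAT2 (-1.48). The change was lower in SW620 for all 3, the STAT2 call was lost without any 1 of 10 of the 12 libraries, and the set holds the SW620 control library that stood apart. For trametinib in set 2, 16 members differed, among them IFITM2 (-3.04), IFI6 (-1.95), SAMD9 (-1.34), SP100 (-1.26) and STAT2 (-1.24). The IFITM2 value rests on 2, 3 and 5 counts in SW48 controls, and the gene passed the filter through SW620. The trametinib change of IFI6 was thus lower in SW620 in both sets, each with controls of its own.

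For palbociclib, 13 members differed between SW620 and SW48. IFI6 (-1.34), MX1 (-1.03), OAS3 (-0.88) and UBE2L6 (-0.83) changed less in SW620, and DDX58 (1.01) changed more. For afatinib, 9 members differed between BT-474 and BT-20. STAT2 (1.12), DDX58 (1.02), IRF9 (0.86) and SP100 (0.85) rose more in BT-474, and the change of OAS3 (-1.71) was lower there. The OAS3 call was lost under DESeq2 and without any 1 of 6 of the 12 libraries, and the IRF9 call when every group of set 2 entered 1 fit.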

How the results depend on the processing

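None of the 100 named values reversed direction under any alternative, and the directions of other members were not checked in this way. DESeq2 size factors left all 23 counts of called members within 1.5 times and all 100 named values on their side of the threshold. With all groups of a set in 1 fit, trametinib in SW48 of set 1 had 11 called members in place of 21, SW620 had 1 in set 1 and 3 in set 2, and afatinib had 2 in NCI-N87 and 2 for NCI-N87 minus MKN-45. DESeq2 gave 1 for trametinib in SW620 of set 1, 9 for its difference from SW48 and 1 for NCI-N87 minus MKN-45. With no filter on low counts, NCI-N87, BT-20 and NCI-N87 minus MKN-45 had 1 each and the difference in set 1 had 2. Leaving out 1 library gave 0 to 3 for trametinib in SW620 of set 2 (3 without trametinib 1), 0 to 6 in NCI-N87 and 0 to 4 for NCI-N87 minus MKN-45 (6 and 4 without control 1 of NCI-N87), and 2 to 10 for the difference in set 1 (10 without SW620 control 3), while trametinib in SW48 ran from 16 to 20 in set 1 and from 22 to 24 in set 2. The cause was not tested, and the shares of all genes called in these refits are not given here. In no comparison did every pair of same-numbered libraries deviate together (correlation over 0.1). With 3 libraries per group this cannot decide whether the numbers pair them. With a replicate block the difference in set 1 had 2 called members, and the other 22 counts stayed within 1.5 times, with 18 in SW48 of set 1 and 10 for palbociclib in SW620. Single calls were lost for BST2 in SW48 of set 1, STAT2 in the set 1 difference, OAS3 and IRF9 between the breast lines and UBE2L6 under palbociclib, and, when 1 library was left out, for BST2, IFITM1, DDX58, ISG20, OAS3 and UBE2L6 in some untreated comparisons. Depth limits members near 1 CPM, such as IFITM2 in SW48, and set 1 of SW620 recovered 0% of simulated 2-fold changes.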
